A study of Mus musculus with 4 samples.

Results

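The MHC class I antigen processing genes are a set of 10 mouse genes whose products cut, carry and load the peptides that class I molecules display. The 10 members, Tap1, Tap2, Tapbp, Psmb8, Psmb9, Psmb10, Psme1, Psme2, B2m and Nlrc5, were chosen by name, and all 10 had an array probe set listed with that gene alone. They were read among 18820 genes measured in the same way. Where a gene had several such probe sets, the brightest on average over all arrays was used, a choice that touched only Nlrc5 among the members. Expression was measured on Affymetrix Mouse Gene ST arrays in 2 knockout and 2 wild-type samples of mouse embryonic stem cells, pluripotent cells grown from the blastocyst. The knockout cells (KAP_KO) carried the conditional KAP1 fl/fl allele, and KAP1 is another name of Trim28, which silences the targets of KRAB zinc finger proteins by recruiting chromatin modifiers. The KAP_WT cells were labelled wild type, and 4-OH-tamoxifen is given as the treatment of both genotypes. All cells grew on irradiated embryonic fibroblasts, the feeder cells, and no step that removes them is described. The labels do not state which Cre was used or whether the genotypes were separate lines, so line and knockout cannot be told apart. The sources also conflict: the design text describes a comparison across the deletion step in conditional cells, and the protocol gives either tamoxifen or vehicle. If the wild type was the same line given vehicle, against its treatment label, the drug and the knockout cannot be told apart either. Replicates are labelled biological, with no word on separate cultures, so the p-values measure the spread between these samples only.

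A class I molecule is a heavy chain paired with beta-2-microglobulin (B2m) and a short peptide. Peptides come from the proteasome, whose catalytic subunits can be replaced by the immunoproteasome subunits Psmb8, Psmb9 and Psmb10, and whose core can be capped by the PA28 activator of Psme1 and Psme2. The transporter of Tap1 and Tap2 moves peptides into the endoplasmic reticulum, where tapasin (Tapbp) holds the empty class I molecule beside it. Interferon raises these genes in part through IRF factors, and Nlrc5 is a transactivator of class I promoters. Embryonic stem cells are known for low class I display.

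Trim28 read 8.97 and 8.92 in the knockout samples, against 11.29 and 11.37 in the wild-type samples, all as log2 expression after RMA. It was 2.38 log2 units lower in the knockout, a log2 change of -2.38 (limma adjusted p = 3.39e-05), in the direction of the labels. The array medians over the tested genes were 5.66 and 5.63 in the knockout and 5.46 and 5.48 in the wild type. Trim28 thus still read above the median in the knockout samples, and the source of that remaining signal was not tested. Over all probe sets the medians were nearly equal, 4.76 and 4.77 in the knockout and 4.76 and 4.75 in the wild type.

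Class I processing genes were higher in the Trim28 knockout. Of the 10 members, 9 rose and 0 fell at an adjusted p under 0.05 in limma, a linear model that moderates each gene's variance, with Benjamini-Hochberg adjustment over all genes. Over all genes, 14.2% were called higher and 12.7% lower, 26.9% in either direction. At an unadjusted p under 0.05 all 10 members were higher and 0 lower, beside 18.1% and 20% of all genes. A rise of at least 2-fold was found for 7 members, against 4.44% of all genes. The median change was 1.67 over the members and -0.05 over all genes tested. Both knockout samples lay above both wild-type samples for all 10 members, a pattern seen in 26.6% of all genes. For Nlrc5 this pattern and the unadjusted p (limma, 0.0499) describe only the probe set used, the brightest of its 19. With each array's median subtracted, the median change of all genes moved to -0.22 and rises made up 24.4% of all calls, against 52.8% as deposited; 9 members still rose.

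**Figure D1:**
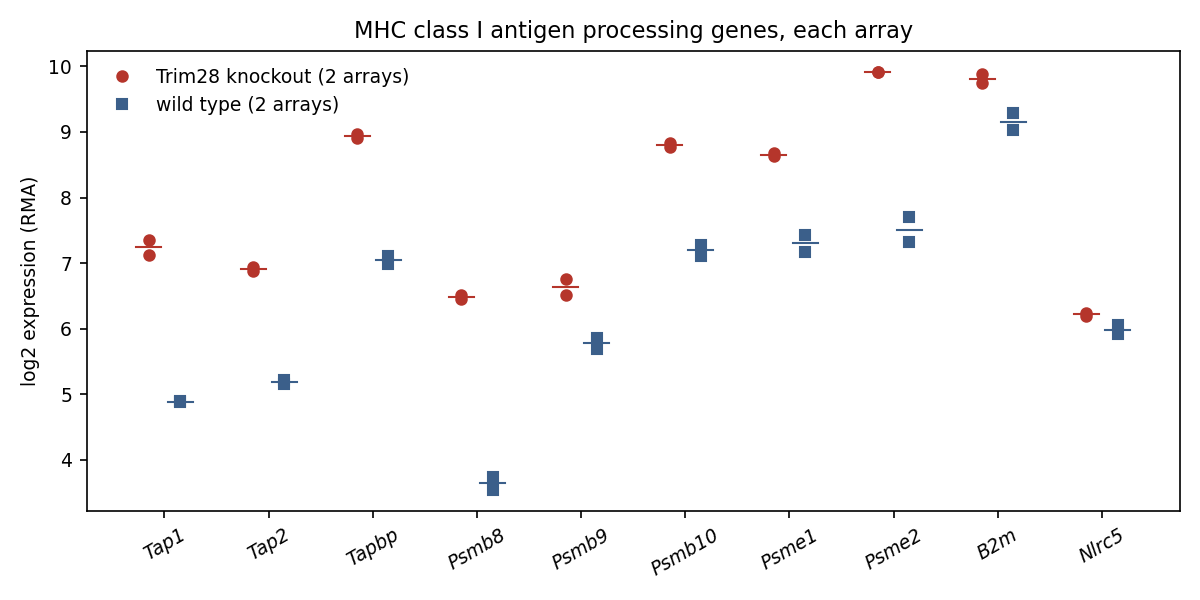
Log2 expression (RMA) of the 10 class I processing genes on each array. Red circles are the 2 Trim28 knockout samples, blue squares the 2 wild-type samples, and short lines the group means; heights are comparable within a gene, not between genes. The groups are apart for every gene, widely for Psmb8 and narrowly for Nlrc5.

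Upstream sequence is shown for B2m and Psmb8, which rose and held a motif searched for here. Also shown is the stretch between the starts of Tap1 and Psmb9, which rose too. RefSeq promoter windows of 300 bases (250 before and 50 after a start, build GRCm38.p6) were matched for 8 of the 10 members, all but Tap2 and Nlrc5. Searched on both strands were GAAANNGAAA, the core of the interferon-stimulated response element (ISRE), TTCNNNGAA, the form of the gamma-activated site (GAS), and the NF-kB consensus. An ISRE core was present in the windows of B2m and Psme1, 2 of the 8 members, and in 3.44% of 32851 windows of all genes. A GAS form was present in Psmb8, 1 of the 8 members, and in 8.30% of all windows. An NF-kB match was present in B2m, also 1 of the 8, and in 8.46% of all windows. Their absence from the other windows says only that these letters are not there.
B2m, the 250 bases before its start on chromosome 2, plus strand (chr2:122147437-122147686), with the ISRE core and, 3 bases further on, the NF-kB match in capitals: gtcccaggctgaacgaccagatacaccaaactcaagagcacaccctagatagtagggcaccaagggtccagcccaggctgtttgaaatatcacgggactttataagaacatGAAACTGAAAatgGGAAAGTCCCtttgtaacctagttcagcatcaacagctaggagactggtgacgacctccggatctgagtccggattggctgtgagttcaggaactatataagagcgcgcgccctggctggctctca
Psmb8, the 250 bases before its start on chromosome 17, plus strand (chr17:34197945-34198194), with the GAS form in capitals: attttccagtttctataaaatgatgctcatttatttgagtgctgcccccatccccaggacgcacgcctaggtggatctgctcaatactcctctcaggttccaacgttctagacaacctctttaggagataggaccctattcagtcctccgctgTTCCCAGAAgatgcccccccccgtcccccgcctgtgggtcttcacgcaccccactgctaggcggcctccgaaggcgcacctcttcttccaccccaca
Tap1 and Psmb9, the 225 bases between their starts, from which they run in opposite directions (chr17:34187331-34187555, plus strand, Tap1 to the right), with GGGCGG on either strand, a GC box found in 35.7% of all windows, in capitals: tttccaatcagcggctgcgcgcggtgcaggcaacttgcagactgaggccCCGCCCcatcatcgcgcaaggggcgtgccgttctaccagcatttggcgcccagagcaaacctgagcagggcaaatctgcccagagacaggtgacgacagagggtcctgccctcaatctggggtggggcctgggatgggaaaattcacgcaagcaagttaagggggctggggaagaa
In Psme1 the match TTTCGCTTTC, the reverse strand of the ISRE core, lies at bases 10 to 19 after the start (chr14:55578503-55578512).

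The immunoproteasome subunits all rose. Psmb8, which replaces the chymotrypsin-like subunit Psmb5, read 6.51 and 6.46 in the knockout samples, against 3.74 and 3.54 in the wild-type samples. This was the largest change among the members, a log2 change of 2.84 (SE 0.10, limma adjusted p = 3.10e-05) or 7.17-fold (95% confidence interval 6.05 to 8.51). Both wild-type values lay below the lower quartile of tested genes on their arrays (3.80 and 3.79), and with no measure of background the fold describes array values only. Psmb10, which replaces Psmb7 at the trypsin-like site, read 8.77 and 8.84 in the knockout and 7.12 and 7.28 in the wild type. Its level was 3.05-fold higher (2.58 to 3.59), a log2 change of 1.61 (limma adjusted p = 1.31e-04). Psmb9, the counterpart of Psmb6, read 6.75 and 6.51 in the knockout and 5.87 and 5.70 in the wild type. It had the smallest change of the 3 subunits, a log2 change of 0.85 (SE 0.12, limma adjusted p = 0.00274), and it starts 226 bases from Tap1, which changed by 2.36. The constitutive counterparts, which each subunit displaces, did not pass the test. Psmb5 had a log2 change of 0.30 (95% interval 0.08 to 0.53, limma adjusted p = 0.0555), which passed with an intensity trend (adjusted p = 0.00731), after renewed quantile normalization (0.0431) and without genes below the median level (0.0412). Psmb6 had a log2 change of 0.09 (-0.15 to 0.33) that turned to -0.077 with array medians subtracted. Psmb7 had one of -0.12 (-0.33 to 0.09), and of -0.29 (adjusted p = 0.0408) with array medians subtracted.

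Of 18 measured genes of the constitutive core and its assembly factors, 0 rose and 1 fell, beside 14.2% and 12.7% of all genes. The fall was that of Psma5, an alpha-ring subunit, with a log2 change of -0.36 (limma adjusted p = 0.0253). That call was lost whichever sample was left out, at adjusted p values of 0.0819 to 0.117. Their changes ranged from -0.36 to 0.30 with a median of -0.09, and 8 fell with array medians subtracted. At an unadjusted p under 0.05, 1 core gene was higher, Psmb5, and 4 were lower.

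The PA28 activator subunits both rose. Psme2 (PA28 beta) read 9.92 and 9.91 in the knockout samples, against 7.32 and 7.70 in the wild-type samples. Its level was 5.30-fold higher (4.24 to 6.62), a log2 change of 2.41 (SE 0.13, limma adjusted p = 9.33e-05). A near-identical copy, Psme2b, exists, and a probe set listed with both genes read 8.25 and 8.31 in the knockout and 6.09 and 6.02 in the wild type, so the signal cannot be assigned to Psme2 alone with certainty. Psme1 (PA28 alpha) read 8.68 and 8.64 in the knockout and 7.17 and 7.43 in the wild type. It was 2.55-fold higher (2.12 to 3.08), a log2 change of 1.35 (limma adjusted p = 3.88e-04). In the wild type the replicates of Psme1 and Psme2 were further apart than in the knockout, with replicate 2 the higher for both. Psme3, the nuclear PA28 gamma activator, which interferon does not induce, had a log2 change of -0.09 (-0.32 to 0.15, adjusted p = 0.586). Psme4, the PA200 activator, rose by 0.81 (limma adjusted p = 0.00332). Of 23 measured genes of the 19S regulator, which recognises ubiquitinated proteins, and of the other activators, 2 rose and 2 fell. Over all genes 14.2% rose and 12.7% fell, and the median change of these 23 was -0.04. The second rise was that of Psmc6 (0.57), and the falls were those of Psmd5 (-0.50) and Psmd1 (-0.48). Psmc6 lost its call without wild-type replicate 2 (adjusted p = 0.0660). Psmd1 lost it without wild-type replicate 1 or 2 (0.0609 and 0.0521), and Psmd5 without these (0.106 and 0.0893) or knockout replicate 2 (0.0720). With array medians subtracted, 6 of the 23 were called lower.

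**Figure D2:**
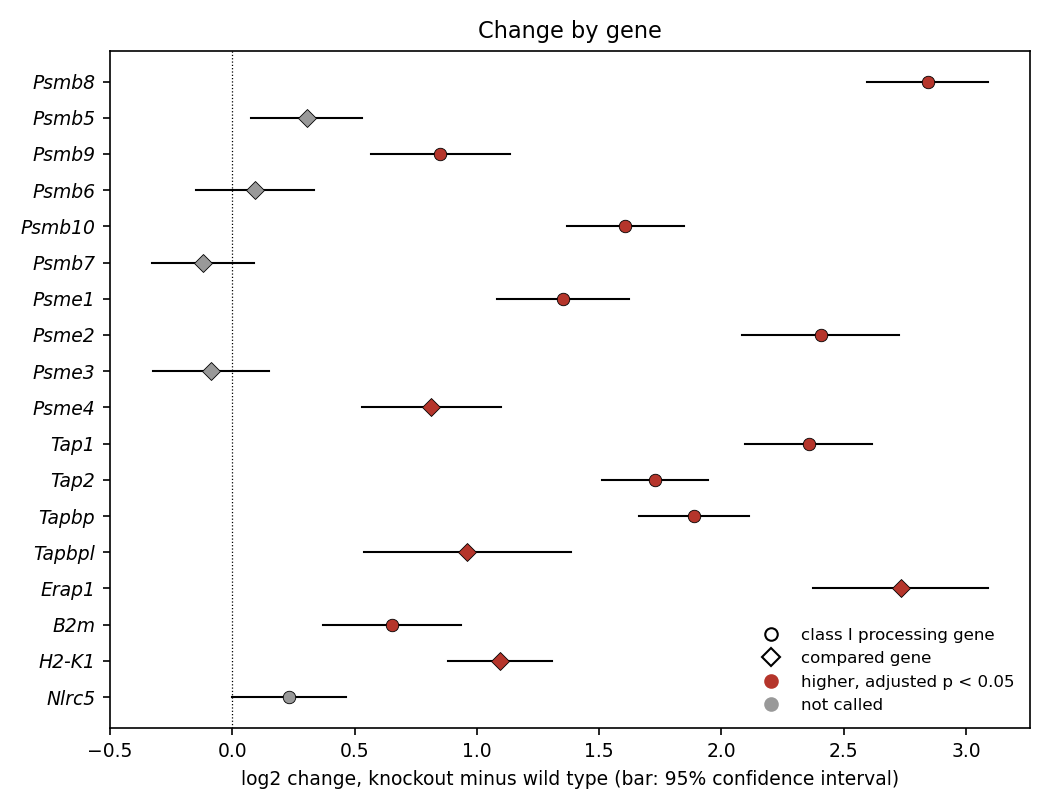
Log2 change, knockout minus wild type, with 95% confidence intervals, for the class I processing genes (circles) and the genes they are compared with (diamonds). Red symbols were called higher at an adjusted p under 0.05 and grey ones were not called; Psmb8, Psmb9 and Psmb10 stand to the right of Psmb5, Psmb6 and Psmb7, and Nlrc5 lies near 0.

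The peptide transporter and the tapasin gene rose as well. Tap1, a subunit of the transporter, read 7.13 and 7.36 in the knockout samples, against 4.89 and 4.88 in the wild-type samples. Its level was 5.12-fold higher (4.28 to 6.12), a log2 change of 2.36 (SE 0.11, limma adjusted p = 5.75e-05). Tap2, its partner, read 6.94 and 6.89 in the knockout and 5.15 and 5.22 in the wild type. That is 3.31-fold higher (2.85 to 3.84), a log2 change of 1.73 (limma adjusted p = 8.12e-05). The gap between the genotypes far exceeded the gap between replicates for both subunits, and their wild-type values lay below the median of tested genes on both arrays. Tapbp read 8.90 and 8.97 in the knockout and 6.99 and 7.11 in the wild type, 3.70-fold higher (3.16 to 4.33) with a log2 change of 1.89 (limma adjusted p = 7.05e-05).

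Among the genes of peptide trimming, folding and loading outside the set, the largest rise was that of Erap1, the aminopeptidase that trims peptides in the endoplasmic reticulum. It read 6.74 and 7.14 in the knockout samples and 4.31 and 4.11 in the wild-type samples, a log2 change of 2.73 (SE 0.15, limma adjusted p = 9.14e-05). Tapbpl, the tapasin-related peptide editor TAPBPR, read 5.47 and 5.65 in the knockout and 4.33 and 4.87 in the wild type, a change of 0.96 (limma adjusted p = 0.00844). The general chaperones of the loading complex did not pass. Calr (calreticulin) had a change of 0.11 (-0.12 to 0.34), Canx (calnexin) of 0.29 (0.06 to 0.53) and Pdia3 (ERp57) of 0.25 (0.02 to 0.47). Canx and Pdia3 passed with an intensity trend (adjusted p = 0.0131 and 0.0340), and Canx after renewed quantile normalization (0.0457); Calr turned to -0.057 with array medians subtracted. Of 26 measured genes of this list 7 rose and 2 fell, against 14.2% and 12.7% of all genes, with a median change of 0.19. Sec63, of the translocon, rose by 0.63 and the cytosolic aminopeptidase gene Lap3 fell by 0.54. Both calls were lost without wild-type replicate 2 (adjusted p = 0.0700 and 0.0562), where the list held 2 rises and 0 falls. It held 3 rises without wild-type replicate 1 or knockout replicate 2, and 1 fall without wild-type replicate 1 or knockout replicate 1. Under subtraction of array medians it held 4 rises and 6 falls.

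The light chain of class I molecules changed least among the members that rose. B2m read 9.74 and 9.89 in the knockout samples, against 9.29 and 9.03 in the wild-type samples. Its level was 1.57-fold higher (1.29 to 1.91), a log2 change of 0.65 (SE 0.12, limma adjusted p = 0.00790). Without wild-type replicate 2, the lower of the pair, the change was 0.53 and the adjusted p 0.0632, so this call rests on that sample. Of 20 measured heavy chains and their relatives, 5 rose and 3 fell, beside 14.2% and 12.7% of all genes. H2-K1, a classical heavy chain, read 8.25 and 8.28 in the knockout and 7.15 and 7.18 in the wild type, a log2 change of 1.09 (limma adjusted p = 3.30e-04). H2-Q6 rose by 1.09, H2-T10 by 0.99, H2-Q8 by 0.88 and H2-T23, the Qa-1 molecule, by 0.72. H2-M5, a class Ib gene in the same complex, went the other way, at 5.03 ± 0.04 in the knockout and 6.99 ± 0.28 in the wild type (SD, n = 2 each), a change of -1.96 (limma adjusted p = 2.08e-04). The CD1 gene Cd1d1 (-0.81) and the Fc receptor gene Fcgrt (-0.56) fell. The median change of the list was -0.02. Under subtraction of array medians the list held 5 rises and 6 falls, and without knockout replicate 2 or wild-type replicate 2 it held 1 fall. Heavy chain genes are near-identical and differ between mouse strains, so these probe sets may read several genes. Of 6 probe sets listed with several class I genes, which were not tested, 5 had both knockout samples above both wild-type samples. That pattern was seen in 26.6% of all genes tested. Differences of the 6 ranged from 0.23 to 1.61, and some of them list H2-K1, H2-Q6 or H2-T10, already counted above.

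Nlrc5, the class I transactivator, is the member that was not called. It read 6.25 and 6.19 in the knockout samples, against 6.06 and 5.91 in the wild-type samples. The log2 change was 0.23 (95% interval 0.00016 to 0.46, limma adjusted p = 0.131). The array has 19 probe sets for Nlrc5 alone, and when all 21218 single-gene probe sets were fitted 0 of the 19 were called (limma). At an unadjusted p under 0.05 there was 1. Their changes ranged from -0.17 to 0.28 with a median of 0.02, and 10 of 19 had the higher mean in the knockout. The groups did not overlap for 7 of the 19, some of them higher and some lower in the knockout. Averaged over its probe sets, Nlrc5 had a change of 0.01. Of these probe sets, 16 read below the median of tested genes on all 4 arrays, and a change may not be detectable on probe sets that dim. The probe set used read above that median on all 4 arrays.

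**Figure D3:**
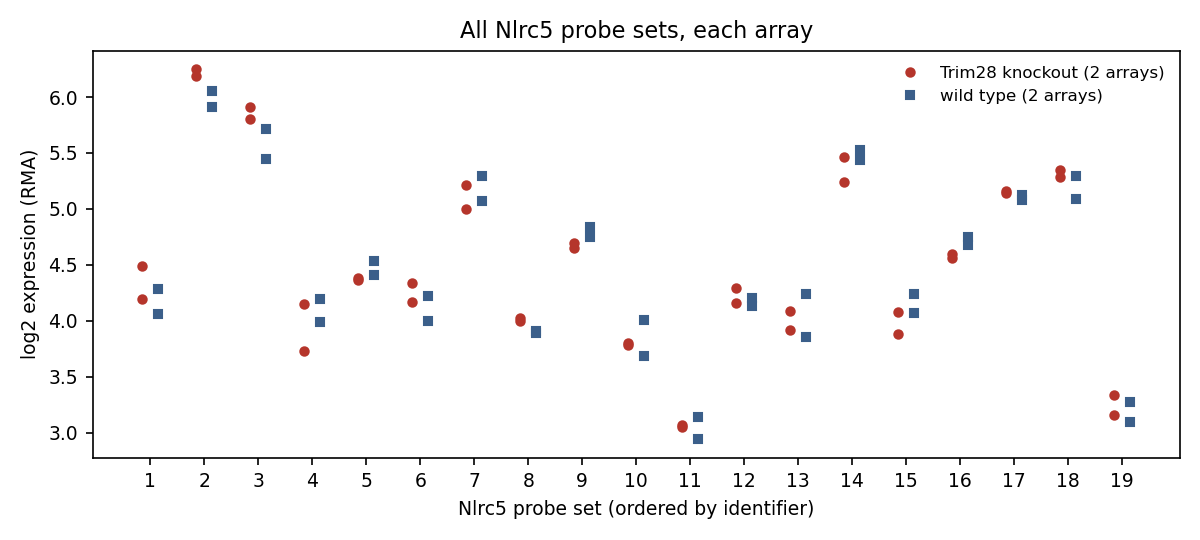
Log2 expression (RMA) of the 19 Nlrc5 probe sets on each array, in order of probe set identifier. Red circles are the 2 knockout samples and blue squares the 2 wild-type samples; changes lie between -0.17 and 0.28 and 0 of 19 probe sets were called.

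Genes that act on class I promoters or carry interferon signals moved in both directions. Of 32 measured, 9 rose and 4 fell (median change 0.06), against 14.2% and 12.7% of all genes. Irf1, an interferon-induced activator of class I and immunoproteasome genes, read 9.03 and 9.21 in the knockout samples and 7.08 and 7.20 in the wild-type samples, a log2 change of 1.98 (limma adjusted p = 8.62e-05). Averaged with its other probe set the change was 1.20. Its relative Irf2 rose by 1.84, with wild-type values of 3.56 and 3.68 below the lower quartile. Usp18, an interferon-induced protease that restrains the type I receptor, rose by 2.61, and the receptor kinase gene Jak2 by 1.85. The interferon gamma receptor genes Ifngr2 and Ifngr1 rose by 1.31 and 0.92, and the type I receptor gene Ifnar1 by 0.66. Irf9 (0.46) and the feedback inhibitor Socs1 (0.55) were the others that rose, while Tyk2 (-0.68), Nfyb (-0.48), Atf1 (-0.40) and Stat2 (-0.38) fell. Without wild-type replicate 1 or 2, 6 rose and 1 fell; without knockout replicate 1, 8 rose and 2 fell, and without knockout replicate 2, 9 rose and 1 fell. None of the 3 interferon genes measured in this list was called (limma, 0 also at an unadjusted p under 0.05). Interferon alpha genes were not on the list. Ifnl2 read 6.22 and 6.22 in the knockout and 6.24 and 6.44 in the wild type, above the median of tested genes on all 4 arrays. The others were dim: Ifnb1 read 2.96 and 2.94 in the knockout and 3.29 and 2.77 in the wild type, and Ifng read 3.81 and 3.82 in the knockout and 3.79 and 3.82 in the wild type. Rfx5, a subunit of the complex through which Nlrc5 reaches DNA, had a change of -0.20 (adjusted p = 0.186), and one of -0.37 (adjusted p = 0.0236) with array medians subtracted.

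Class II presentation genes, 7 of them on chromosome 17 and 3 elsewhere (Cd74, Ctss and Ifi30), held 3 rises and 1 fall among 10 measured. Over all genes 14.2% rose and 12.7% fell, and the median change of the list was 0.23. H2-Eb1 read 6.65 and 6.39 in the knockout samples and 5.06 and 5.21 in the wild-type samples, a log2 change of 1.38 (limma adjusted p = 4.20e-04). H2-Ab1 rose by 1.01 (adjusted p = 6.71e-04), and its wild-type values of 4.57 and 4.52 lay below the array medians. H2-Aa (0.32) and the lysosomal protease gene Ctss (-0.34) lost their calls whichever sample was left out. Ciita, the class II transactivator and a relative of Nlrc5, had a change of -0.05 (-0.26 to 0.17).

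**Figure D4:**
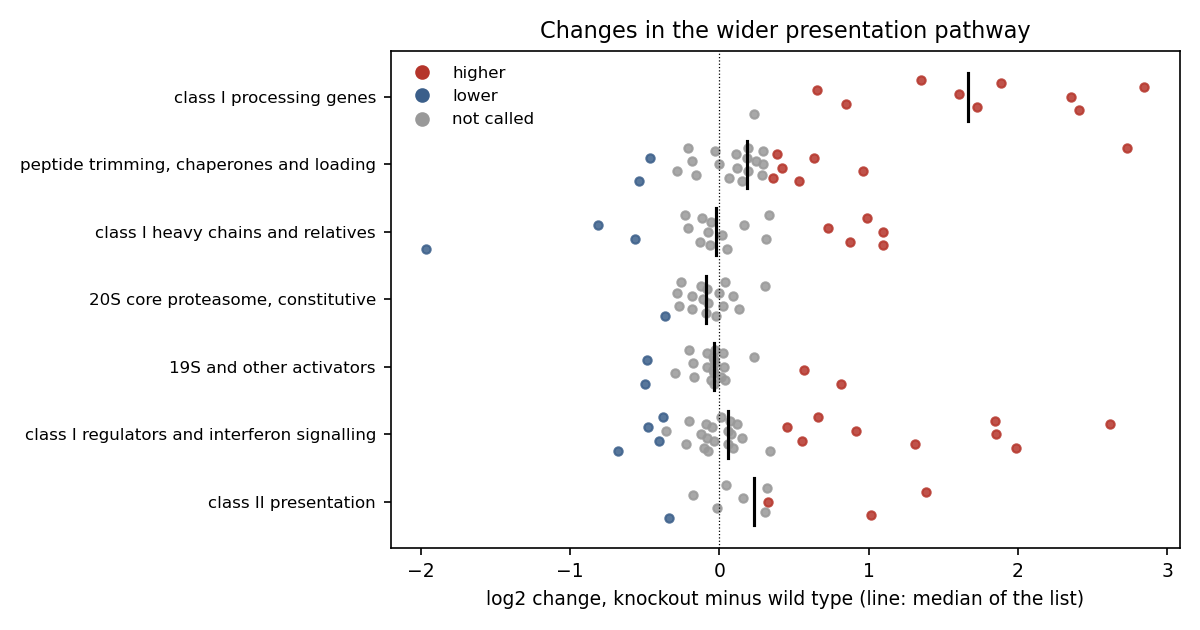
Log2 change, knockout minus wild type, of each measured gene in the class I processing set and 6 lists of the wider pathway. Points are genes, red if called higher, blue if called lower and grey if not called, and black lines are list medians; the processing set has a median of 1.67 and the constitutive core proteasome one of -0.09.

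The members lie in 5 places in the genome of the GRCm38.p6 annotation. Tapbp (chr17:33919478-33929290), Psmb9 (chr17:34182030-34187330), Tap1 (chr17:34187556-34197225), Psmb8 (chr17:34198195-34201454) and Tap2 (chr17:34204479-34216321) are in the major histocompatibility complex. Psme1 (chr14:55578494-55581527) and Psme2 (chr14:55587440-55591101) are neighbours on chromosome 14. Psmb10 (chr8:105935728-105938392) and Nlrc5 (chr8:94434335-94527272) share chromosome 8, and B2m is at chr2:122147687-122153082.

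Genes beside the members were read as a check of their surroundings, within 250 kb of a member's lower coordinate and leaving out the members. Around the 5 members on chromosome 17, 5 of 35 genes rose and 7 fell, beside 14.2% and 12.7% of all genes. The rises were H2-Eb1, H2-K1, H2-Ab1, AA388235 (0.47) and H2-Aa. Without genes named H2, 1 of 24 rose and 6 fell. Daxx, a histone chaperone gene beside Tapbp, fell by 0.46, Vps52 by 0.57, Wdr46 by 0.42 and Angptl4 by 0.82. Around Psme1 and Psme2, 12 of 26 genes (46.2%) rose and 0 fell in limma, with a median change of 0.20; at an unadjusted p under 0.05 there were 12 and 2. There Tm9sf1 rose by 1.31, Rec8 by 0.79, Nfatc4 by 0.69 and Nedd8 by 0.57, and Irf9 lies among them. The part of this regional rise in the changes of Psme1 and Psme2 was not tested; of the 8 members outside chromosome 14, 7 rose. Near Psmb10, 3 of 24 genes rose and 5 fell, among them Dus2 (-0.86), Esrp2 (0.58), Pskh1 (0.52) and Ctrl (-0.52). Near B2m, Shf (0.95) rose and Spg11 (-0.67) and Patl2 (-0.64) fell among 10. Near Nlrc5, 3 of 10 rose and 2 fell, led by Cpne2 (1.32), Pllp (0.85), Arl2bp (0.51) and Herpud1 (-0.36).

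**Figure D5:**
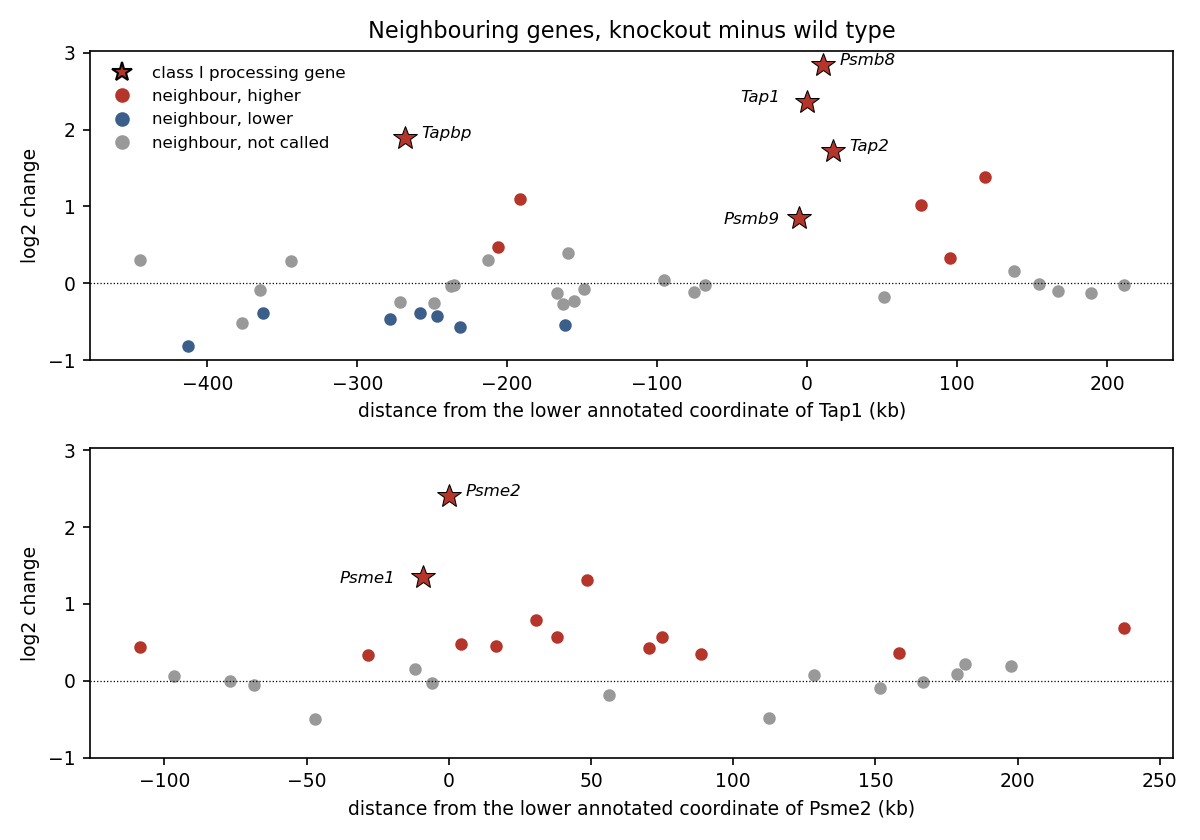
Log2 change, knockout minus wild type, against distance in kb from Tap1 on chromosome 17 (top) and from Psme2 on chromosome 14 (bottom). Stars are class I processing genes and points their neighbours, red if called higher, blue if called lower and grey if not called; 5 of 35 neighbours rose in the top panel and 12 of 26 in the bottom panel.

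Markers of fibroblasts and of stem cells differed between the genotypes, and bulk arrays do not show which cells expressed them. Of 18 fibroblast markers 13 rose and 0 fell (limma), beside 14.2% and 12.7% of all genes. Counts were again 13 and 0 at an unadjusted p under 0.05. The summed linear array value of these markers was 1121 and 1055 in the knockout samples, against 566 and 489 in the wild-type samples. Their median change was 0.89, against 1.67 over the members. Dcn, the decorin gene, rose most, by 2.64 (limma adjusted p = 0.00101). It read 5.56 and 6.51 in the knockout and 3.55 and 3.25 in the wild type. Col1a1 rose by 1.78 and Pdgfrb by 1.58. The stromal markers Fap and Lum stayed between 2.66 and 3.24 in the knockout and between 2.74 and 3.20 in the wild type. These values lay below the lower quartile of tested genes on every array, where a change may not be detectable. The other markers not called were Thy1 (0.25), S100a4 (0.10) and Col6a2 (0.07). Stem cell markers fell for 9 of 12 and rose for 0 (11 and 0 unadjusted), with sums of 15203 and 13074 in the knockout and 20680 and 20551 in the wild type. Fibroblasts express class I processing genes too; the part of feeder cells in the rises was not tested, and in these bulk samples a change in the number of such cells cannot be told apart from a change in RNA per cell. Of 11 leukocyte markers 0 rose and 4 fell, the same counts as at an unadjusted p under 0.05. Ptprc, which encodes the pan-leukocyte CD45, read 3.57 and 3.67 in the knockout and 3.78 and 3.61 in the wild type. The summed leukocyte value was 356 and 355 in the knockout, against 1314 and 1144 in the wild type, most of it from Laptm5, which read 7.80 and 7.83 in the knockout and 10.16 and 9.91 in the wild type.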

How the data were processed

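The deposited table gives 35556 probe sets on 4 arrays as log2 expression. The submitters' processing notes name affy and RMA, without versions, for how the authors made them. RMA removes a modelled background, normalizes arrays to each other and summarises probes, which compresses differences among dim probe sets. Total RNA (250 ng per sample) was hybridised after 24 h with 4-hydroxytamoxifen or vehicle and 48 h without, per the labels' protocols. No detection calls were used, so signal over background is unknown, and the number of arrays limits the precision.

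Of 23099 annotated probe sets 21218 name 1 gene and 1881 several; single-gene probe sets were tested, the brightest per gene, which left 18820 genes; dim genes were kept. Symbols came from the GRCm38.p6 annotation for 21185 probe sets. Changes were fitted in R 4.3.3 with limma 3.58.1 (lmFit, eBayes; 2 residual and 4.70 prior degrees of freedom), knockout minus wild type, two-sided. Data simulated under the fit's own noise model were also fitted, which checks the code and not the calls made here. The members and gene lists were chosen with earlier results of these data known. Named besides the members were preset counterparts and regulators and up to 4 called genes with the largest change per list or neighbourhood; others were chosen after their values were seen. Replicate numbers come from the sample titles. Alternatives were a replicate block, other priors, filters, scalings, probe set averages and leaving out each sample.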

Additional observations from a re-analysis of the deposited data

How the results depend on the processing

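The 9 members that rose kept their direction in all alternatives in which they were tested, and 8 of them kept their call; B2m lost it without wild-type replicate 2, and leaving out 1 sample at a time its change ranged from 0.53 to 0.78. Psmb8 was not tested without genes below the median level. Nlrc5 stayed uncalled, with changes from 0.01 to 0.30. Between 8 and 9 members were called higher, and 0 lower. The count of all genes called was 5071, and 8457 with array medians subtracted, of which 6392 were lower, against 2395. Leaving out 1 sample at a time gave 2430 to 4350 calls, 1531 to 2405 higher and 899 to 1945 lower. With the replicate block, 5093 genes were called, 9 members among them, all higher; same-numbered samples deviated together only weakly (r = 0.15 across genes, 2 pairs), and the labels give no shared batch, so the numbers were not taken as pairs. With array medians subtracted, Psmb6 turned to -0.077 and Calr to -0.057, neither called. Counts in the wider lists moved by more than 1.5 times in 40 of 144 recounts; the cause was not tested. Other background corrections need scanner intensities and were not run.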
